A study of Mus musculus with 8 samples.

Results

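Pnlip, Pnliprp1, Cel, Sycn and Gp2 encode products that the acinar cells of the exocrine pancreas pack into zymogen granules, and Amy2b belongs to the pancreatic amylase family but is classed as a pseudogene in the deposited table. Their transcripts were followed here in mouse duodenum. These 6 genes, of 54532 in the deposited expression table, were chosen by name from a group of pancreatic genes whose level was already known to be lower in Zeb2+/- than in WT libraries. Their genotype difference is therefore described, and counts of their calls are given but not read as a test. Other genes of fat digestion, starch digestion and granule secretion were tested across the whole table.

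The series addressed reduced growth in mice heterozygous for a global knockout of Zeb2, a zinc-finger repressor gene whose loss of 1 copy causes Mowat-Wilson syndrome in people. Poly(A) RNA of whole duodenum was sequenced from 4 WT samples (both Zeb2 copies intact) and 4 Zeb2+/- samples (the knockout allele in every cell), with no treatment in either group. The sources used here give no strain, no age and no animal for a library, so p-values reflect only how these samples vary, part of which may be technical. The level of a gene is given as FPKM, the fragments assigned to it, scaled by its length and by a factor for each library.

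Acinar cells release their granules into the pancreatic duct, which opens into the duodenum. Pancreatic lipase splits dietary triglyceride with the help of colipase, carboxyl ester lipase splits cholesteryl and vitamin esters once bile salts have activated it, and amylase cuts starch into short sugars. Syncollin and GP2 are not digestive enzymes but line the inner face of the granule membrane, and GP2 is also carried by M cells, the antigen-sampling cells over intestinal lymphoid follicles.

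Reads assigned to genes numbered 13579347 to 17137417 per library, and a single read on a gene of 1 kilobase equalled 0.0538 to 0.0885 FPKM. This scale did not follow the reads assigned alone. Zeb2+/- libraries 1 and 3 held 16096115 and 16303910 reads, but such a read equalled 0.0538 and 0.0837 FPKM in them. How the factor was set is not given. The targeted gene, Zeb2, averaged 0.943 ± 0.192 FPKM over the WT libraries against 0.301 ± 0.146 FPKM over the mutant ones (SD, n = 4), without overlap, so it ran with the labels. Enterocyte genes such as Fabp1 (3849 and 4501 FPKM) and Sis (1015 and 867 FPKM) were abundant in both genotypes, as the duodenum label implies. WT library 3 stood apart for the pancreatic genes, and values are given with and without it. Over the 9 enterocyte and duodenum genes Zeb2+/- libraries 1 and 3 lay at the extremes, at 5386 and 13663 summed FPKM beside 8734 to 11454 in WT. These sums carry the different FPKM scale of Zeb2+/- libraries 1 and 3.

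Together the 6 genes took 0.0552% of the reads in WT library 1 (95% exact binomial interval 0.0540 to 0.0563%), 0.0961% in WT library 2 (0.0946 to 0.0975%) and 0.0972% in WT library 4 (0.0957 to 0.0988%). In WT library 3 the share was 0.00545% (0.00510 to 0.00582%). In Zeb2+/- libraries 1 to 4 it was 0.000578%, 0.000169%, 0.000215% and 0.000874%, with intervals that reached from 0.000107% to 0.00104%. The intervals cover counting error only. All 4 Zeb2+/- shares thus lay below WT library 3, which in turn lay about an order of magnitude below the other WT libraries. In whole tissue, fewer cells of a type in a sample, whatever tissue they came with, and less RNA per cell cannot be told apart. How much pancreatic tissue each sample held was not tested.

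**Figure D1:**
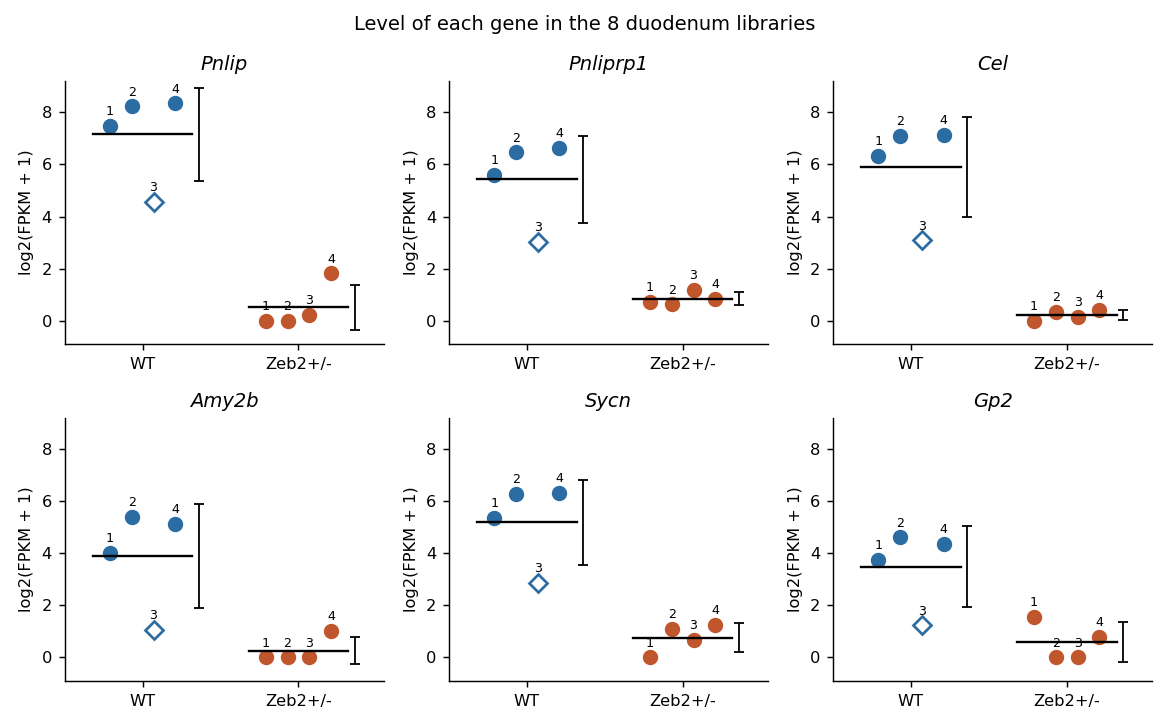
Level of each of the 6 genes, as log2(FPKM + 1), in the 4 WT (blue) and 4 Zeb2+/- (orange) libraries, with library numbers beside the points, WT library 3 as an open diamond, the group mean as a line and 1 SD as a bar. WT library 3 lies between the other WT libraries and the Zeb2+/- libraries for every gene but Gp2, where Zeb2+/- library 1 (1.96 FPKM) lies above it (1.34 FPKM).

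Pnlip encodes pancreatic triglyceride lipase, the main fat-digesting enzyme of the gut lumen, and was the most abundant of the 6 in WT. The gene (ENSMUSG00000046008) lies on chromosome 19 at 58670365 to 58681786 on the plus strand of GRCm38 (mm10), with 13 exons in its longest transcript. It measured 177.1, 298.0, 22.5 and 323.3 FPKM in WT libraries 1 to 4, and 0, 0, 0.169 and 2.52 FPKM in Zeb2+/- libraries 1 to 4. Every WT library was above every Zeb2+/- library, and Zeb2+/- library 4 held 48 of the 51 reads that the mutant libraries gave. The means were 205.2 ± 137.5 and 0.672 ± 1.23 FPKM (SD, n = 4), a ratio of 305.2, or 395.8 without WT library 3. A count of 0 reads allowed up to 0.109 FPKM in Zeb2+/- library 1 and 0.179 FPKM in library 2.

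The start region of Pnlip is shown because it was the most abundant gene. The window runs from 250 bases before to 50 bases after the start in RefSeq (GRCm38.p6, chr19:58670115-58670414, plus strand). Capitals mark TATAAA, the TATA box, which begins at -30, where negative positions count bases before the start.
Pnlip: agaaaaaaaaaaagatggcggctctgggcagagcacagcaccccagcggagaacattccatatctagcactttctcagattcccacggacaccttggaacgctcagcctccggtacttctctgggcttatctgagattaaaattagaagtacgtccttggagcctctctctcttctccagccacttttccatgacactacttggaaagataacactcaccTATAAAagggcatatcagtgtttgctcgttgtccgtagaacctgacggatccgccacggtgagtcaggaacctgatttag

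Pnliprp1, pancreatic lipase-related protein 1, is a close relative of Pnlip that has little lipase activity of its own. The gene (ENSMUSG00000042179) lies 47101 bases downstream of Pnlip, at 58728887 to 58744169 on the same strand of chromosome 19. Its WT levels were 47.4, 87.1, 7.06 and 97.3 FPKM, and its Zeb2+/- levels were 0.664, 0.547, 1.29 and 0.771 FPKM. The groups did not overlap, and all 4 mutant libraries kept a low and similar level, resting on 20, 10, 25 and 16 reads. The means of 59.7 ± 41.2 and 0.819 ± 0.329 FPKM (SD, n = 4) gave a ratio of 73.0, or 94.4 without WT library 3. WT library 3 alone was at 8.62 times the Zeb2+/- mean.

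Cel encodes carboxyl ester lipase, the bile salt-activated enzyme. The gene (ENSMUSG00000026818) lies on chromosome 2 at 28555795 to 28563403 on the minus strand, with 11 exons in its longest transcript. It measured 79.3, 135.7, 7.47 and 140.8 FPKM in WT, and 0, 0.252, 0.119 and 0.334 FPKM in Zeb2+/-. No mutant library reached the lowest WT library, and the 4 together held 18 reads of the gene. The means of 90.8 ± 62.2 and 0.176 ± 0.147 FPKM (SD, n = 4) gave a ratio of 515.1, the largest of the 6, and of 672.7 without WT library 3. Zeb2+/- kept 0.194% of the WT mean. Its chromosomal neighbours did not share this difference: Ralgds, 2714 bases away, was at 8.88 FPKM in both genotypes, and Gtf3c5 was at 3.34 and 3.28 FPKM.

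The Cel window is shown because it alone of the 6 held an E-box within 30 bases of TTTCCC. The E-box, CANNTG, is the core bound by basic helix-loop-helix factors, and TTTCCC is the core of the TC box that the acinar factor PTF1 binds beside an E-box. The window comes from RefSeq (GRCm38.p6, chr2:28563354-28563653, minus strand), and capitals mark CANNTG and TTTCCC on either strand.
Cel: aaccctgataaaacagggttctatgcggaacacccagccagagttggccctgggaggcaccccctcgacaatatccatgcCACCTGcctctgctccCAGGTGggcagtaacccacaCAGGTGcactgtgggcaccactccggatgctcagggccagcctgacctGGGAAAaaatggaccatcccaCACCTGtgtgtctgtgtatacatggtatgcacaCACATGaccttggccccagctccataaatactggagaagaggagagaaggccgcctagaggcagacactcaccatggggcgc

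Amy2b was the only amylase family gene of the 6. The gene (ENSMUSG00000083079) lies on chromosome 3 at 113147656 to 113156727 on the minus strand, and both the deposited table and the GENCODE annotation of this build class it as an unprocessed pseudogene. It measured 15.1, 41.0, 1.07 and 33.6 FPKM in WT, from 360, 1040, 22 and 762 reads. In Zeb2+/- libraries 1, 2 and 3 it was at 0, where no read allowed up to 0.102, 0.168 and 0.159 FPKM. Zeb2+/- library 4 gave 1.04 FPKM from 21 reads, so WT library 3 lay only just above it and the groups did not overlap. The means of 22.7 ± 18.0 and 0.260 ± 0.519 FPKM (SD, n = 4) gave a ratio of 87.4, or 115.1 without WT library 3. Of 1478 windows of 100 bases in its transcript, 169 (11.4%) also occur in transcripts of Amy2a1 to Amy2a5, so the split of reads among these copies is uncertain.

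Taken as a family, the Amy2 genes gave 946, 2955, 104 and 2349 reads in WT libraries 1 to 4 and 0, 0, 6 and 24 reads in Zeb2+/- libraries 1 to 4. The family total does not depend on how counted reads were divided among its copies. Like the shares below, it may depend on whether reads with several matches were counted, which is not given. Again every WT library lay above every mutant library. Amy2b made up 38.1%, 35.2%, 21.2% and 32.4% of the WT family reads. Amy1, the salivary and liver amylase gene, stayed near 0 in both genotypes, at 0.241 ± 0.209 and 0.176 ± 0.128 FPKM (SD, n = 4) with overlap between groups.

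Sycn encodes syncollin, a small granule membrane protein that takes part in exocytosis. The gene (ENSMUSG00000084174) lies on chromosome 7 at 28540885 to 28542209 on the plus strand and has 2 exons. It measured 39.5, 76.1, 6.21 and 79.1 FPKM in WT, and 0, 1.11, 0.602 and 1.40 FPKM in Zeb2+/-. The groups did not overlap, and the mutant values rest on 0, 7, 4 and 10 reads. The means of 50.2 ± 34.4 and 0.780 ± 0.616 FPKM (SD, n = 4) gave a ratio of 64.4, or 83.2 without WT library 3. Sycn lies inside the span of Samd4b on the opposite strand, but none of its 556 exon bases is shared with an exon of that gene.

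Gp2 encodes the major glycoprotein of the zymogen granule membrane. The gene (ENSMUSG00000030954) lies on chromosome 7 at 119442537 to 119459285 on the minus strand, with 11 exons in its longest transcript. It measured 12.3, 23.3, 1.34 and 19.7 FPKM in WT, and 1.96, 0, 0 and 0.741 FPKM in Zeb2+/-. It was the only one of the 6 whose groups overlapped, since Zeb2+/- library 1, with 73 reads, lay above WT library 3, with 35 reads. The means of 14.2 ± 9.70 and 0.676 ± 0.927 FPKM (SD, n = 4) gave a ratio of 20.9, the smallest of the 6. Without WT library 3 the ratio was 27.3 and the groups did not overlap.

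The Gp2 window is shown as that of the gene whose levels in Zeb2+/- departed most from the other 5. It comes from RefSeq (GRCm38.p6, chr7:119459223-119459522, minus strand). Capitals mark CANNTG, which begins at -235 and -53, and TATAAA, which begins at -32.
Gp2: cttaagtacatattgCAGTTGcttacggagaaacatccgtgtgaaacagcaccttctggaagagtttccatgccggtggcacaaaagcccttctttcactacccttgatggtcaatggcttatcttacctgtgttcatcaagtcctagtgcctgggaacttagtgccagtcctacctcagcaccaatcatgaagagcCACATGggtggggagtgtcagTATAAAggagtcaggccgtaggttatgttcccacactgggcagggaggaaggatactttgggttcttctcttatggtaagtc

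All 6 genes matched a RefSeq start region, and the motifs were searched on both strands of each window of 300 bases. TATAAA was found in 3 of the 6 (Pnlip, Amy2b and Gp2) and in 13.6% of 32851 promoters. CANNTG was found in 4 of the 6 and in 72.3% of promoters, and its form CACCTG, counted within it, in 2 of the 6 and 20.2%. TTTCCC was found in 2 of the 6 (Cel and Amy2b) and in 25.2% of promoters. CANNTG and TTTCCC within 30 bases of each other were found in Cel, 15 bases apart, and in 6.51% of promoters. AAGGTCA, the core bound by the nuclear receptor Nr5a2, was found in Cel, where it shares bases with the last E-box, and in 4.72% of promoters. A match describes letters and shows no binding.

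The mean WT levels ran in the order Pnlip, Cel, Pnliprp1, Sycn, Amy2b, Gp2. No neighbouring pair of means in this order differed by more than the larger SD over the 4 libraries, because the whole group moved between libraries. Within a library the order was steadier. WT libraries 1, 2 and 4 gave it without exception, and WT library 3 exchanged only Amy2b and Gp2.

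The make-up of the 6 was close in all WT libraries although their summed level ran from 45.6 to 693.7 FPKM. Pnlip held 47.8%, 45.1%, 49.2% and 46.6% of the sum in WT libraries 1 to 4. Cel held 21.4%, 20.5%, 16.4% and 20.3%, and Pnliprp1 held 12.8%, 13.2%, 15.5% and 14.02%. Sycn held 10.6 to 13.6%, Amy2b 2.35 to 6.20% and Gp2 2.84 to 3.53%. WT library 3 had the lowest share of Cel and of Amy2b and the highest share of Pnlip, Pnliprp1 and Sycn.

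**Figure D2:**
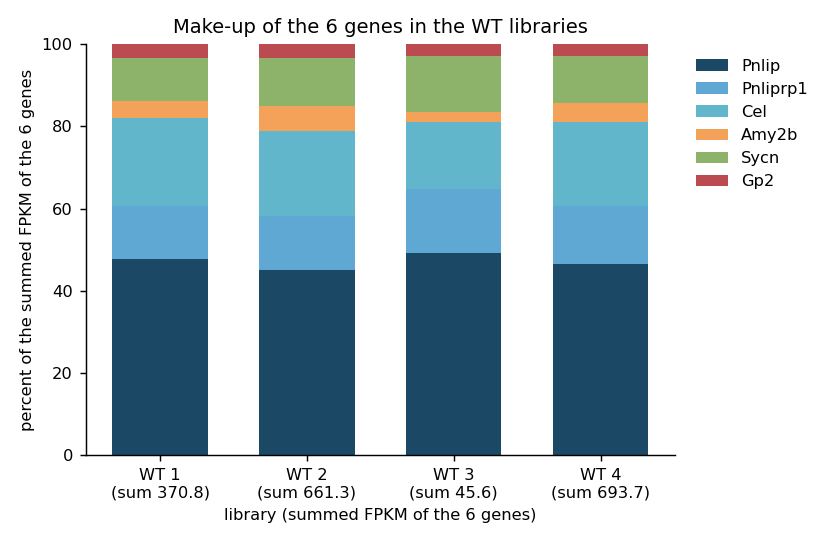
Share of each of the 6 genes in their summed FPKM (vertical axis, percent) in each WT library, with the summed FPKM under each bar. Pnlip takes 45.1 to 49.2% in each bar although the sum in WT library 3 (45.6 FPKM) is far below the others (370.8 to 693.7 FPKM).

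WT library 3 held between 3.58% (Amy2b) and 9.57% (Sycn) of the mean of WT libraries 1, 2 and 4. WT library 1 also lay below WT library 4, at 45.1 to 62.5% of it over the 6 genes, while WT library 2 lay at 89.6 to 122.1% of it. The WT spread was therefore shared by the 6 genes and carried mostly by WT library 3.

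The mutant libraries did not share this make-up. Their summed level was 2.63, 1.91, 2.18 and 6.81 FPKM. In Zeb2+/- library 1 Gp2 made up 74.7% of the sum and Pnliprp1 the rest. In library 2 Sycn led with 58.2%, and in library 3 Pnliprp1 led with 59.2%. Zeb2+/- library 4 was the only one led by Pnlip, at 37.0%, and the only one with reads of all 6 genes. These shares rest on 93, 23, 35 and 123 reads.

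In the fit of limma across 12190 genes, with Benjamini-Hochberg adjustment, 2.77% of genes were lower in Zeb2+/- and 0.468% were higher at an adjusted p below 0.05. All 6 genes passed the filter on a mean of at least 1 FPKM, but only through WT, since every Zeb2+/- mean was below 1 FPKM. Of the 6, 4 were among the lower calls and Amy2b and Gp2 were not. In 5 of the 6 every mutant library lay below every WT library, against 6.87% of all genes. Without WT library 3 all 6 were called lower, against 2.08% of genes, whereas limma voom on the rebuilt reads called 0 of the 6 (5 at an unadjusted p below 0.05), against 1.53% of genes lower and 0.123% higher. The choice of the 6 rested on this contrast, so nothing is read from these counts. On the log2(FPKM + 1) scale the difference between means (Zeb2+/- minus WT) was -6.64 for Pnlip, -5.69 for Cel, -4.58 for Pnliprp1, -4.44 for Sycn, -3.63 for Amy2b and -2.89 for Gp2. Their median was -4.51, and -5.30 without WT library 3.

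Of the other pancreatic genes of fat digestion, 3 of 3 tested fell in Zeb2+/- and 0 rose, with a median log2 fold change of -2.67 beside 0.00238 over all genes. They are Clps, which encodes the colipase that anchors pancreatic lipase on fat droplets, Pnliprp2, a lipase of galactolipids and phospholipids, and Pla2g1b, the pancreatic phospholipase. This list and those that follow were drawn up with earlier results of these data known. Genes of these lists with a Zeb2+/- mean near 0, such as Pla2g1b, passed the filter only through WT.

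Clps measured 92.8, 145.2, 43.8 and 154.6 FPKM in WT, and 3.96, 10.3, 10.7 and 16.8 FPKM in Zeb2+/-. Each mutant library stood well below the lowest WT library. The means were 109.1 ± 51.3 and 10.4 ± 5.26 FPKM (SD, n = 4), a log2 fold change of -3.25 (SE 0.48, limma adjusted p = 0.00794). It was called in 19 of 20 alternatives, with adjusted p between 0.00311 and 0.0924, and lost the call without Zeb2+/- libraries 1 and 3. Clps kept 9.57% of its WT mean in Zeb2+/-, more than any of the 6 genes, and 33.5% in WT library 3 relative to the other WT libraries.

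Pnliprp2, which lies 15554 bases beyond Pnliprp1, measured 36.6, 40.0, 34.8 and 58.2 FPKM in WT, and 1.85, 7.06, 16.2 and 8.91 FPKM in Zeb2+/-. WT library 3 sat close to WT libraries 1 and 2, unlike for the neighbouring lipases, and held 77.5% of the mean of the other WT libraries. The means were 42.4 ± 10.8 and 8.52 ± 5.95 FPKM (SD, n = 4), a log2 fold change of -2.43 (SE 0.48, limma adjusted p = 0.03001). The call was lost without any 1 of the WT libraries or Zeb2+/- library 2 or 4, and over the alternatives the adjusted p ran from 0.00107 to 0.0928 (0.0182 with voom). Thus on 1 strand of chromosome 19 the Zeb2+/- mean was 0.328% of WT for Pnlip, 1.37% for Pnliprp1 and 20.1% for Pnliprp2.

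Pla2g1b measured 6.14, 13.1, 1.08 and 10.8 FPKM in WT, and 0, 0.124, 0 and 0.328 FPKM in Zeb2+/-. The groups did not overlap, and WT library 3 was again the lowest WT library. The means were 7.77 ± 5.32 and 0.113 ± 0.155 FPKM (SD, n = 4), a log2 fold change of -2.67 (SE 0.53, limma adjusted p = 0.0310). Without WT library 3 the adjusted p was 0.000515, and the call was lost on leaving out any 1 of the other 7 libraries (adjusted p up to 0.0935) and with voom (0.123).

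**Figure D3:**
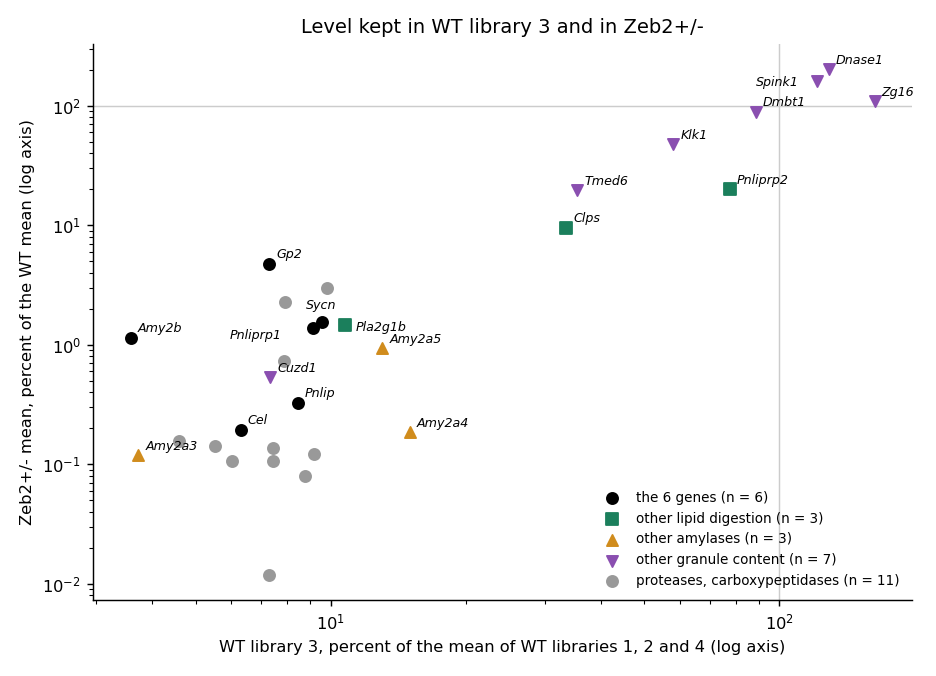
Mean level in Zeb2+/- as a percent of the WT mean (vertical, log axis) against the level in WT library 3 as a percent of the mean of WT libraries 1, 2 and 4 (horizontal, log axis), for the 6 genes and 4 gene lists with a mean of at least 1 FPKM and at least 1 Zeb2+/- read. The 6 genes sit at 3.58 to 9.57% on the horizontal axis and 0.194 to 4.77% on the vertical axis, Clps and Pnliprp2 lie higher on both, and Zg16, Dmbt1, Spink1 and Dnase1 lie near or above 88% on both.

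Of the other amylase genes, 2 of 4 tested fell and 0 rose, with a median log2 fold change of -2.30. Amy2a4 was at 2.82 ± 2.08 FPKM in WT and gave 1 read in the 4 mutant libraries (limma adjusted p = 0.0472). Amy2a5 fell from 3.36 ± 2.39 to 0.0316 ± 0.0632 FPKM (SD, n = 4; limma adjusted p = 0.0478). Amy2a3 was at 8.84 ± 8.09 FPKM in WT with 2 reads in the mutants (limma adjusted p = 0.0806). Amy2a1, at 6.85, 14.2, 0.431 and 30.04 FPKM in WT, gave no read in any mutant library, which made it at least 201.3-fold lower against a floor of 3 reads over the group (limma adjusted p = 0.0809). With voom 0 of the 4 were called (3 at an unadjusted p below 0.05), and without WT library 3 all 4 were. The Amy2a4 call was lost without WT library 1 or 2 or any 1 mutant library, and the Amy2a5 call without any 1 library but WT library 3 (adjusted p up to 0.145 and 0.133).

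Of the other granule content genes, 1 of 7 tested fell and 0 rose, with a median log2 fold change of -0.39. With voom 0 were called, and 5 were below an unadjusted p of 0.05 by limma and by voom. Tmed6, a cargo-receptor family gene of the early secretory pathway, fell from 2.92 ± 1.36 to 0.576 ± 0.300 FPKM (limma adjusted p = 0.0456), a call lost on leaving out any 1 library but WT library 3 (adjusted p up to 0.141). Cuzd1, a granule membrane protein, was at 3.21 ± 2.16 FPKM in WT with 2 reads in the mutants (limma adjusted p = 0.0611, and 0.000873 without WT library 3). Klk1, tissue kallikrein, was at 59.2 ± 17.4 and 28.1 ± 9.55 FPKM (adjusted p = 0.109 by limma).

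The other 4 granule content genes were abundant in both genotypes and did not pass the test. Zg16, a lectin of zymogen granules that goblet cells also make, was at 1226 ± 352 and 1347 ± 579 FPKM. Dmbt1, a mucosal scavenger protein, was at 257.4 ± 23.0 and 229.7 ± 145.9 FPKM, and Spink1, the trypsin inhibitor, was at 442.6 ± 60.8 and 714.0 ± 287.2 FPKM. Dnase1 was at 50.3 ± 6.93 and 101.8 ± 52.9 FPKM, and all 4 overlapped between groups (SD, n = 4). Without WT library 3, Spink1 and Dnase1 were higher in every Zeb2+/- library than in the WT ones. Over all libraries their limma adjusted p was 0.256 and 0.231, with an unadjusted p below 0.05. For Zg16, Spink1 and Dnase1 WT library 3 lay above the mean of the other WT libraries, at 163.1%, 121.5% and 128.9% of it.

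Genes of the machinery that moves and fuses granules showed no call. Of 12 tested, 0 fell and 0 rose by limma or by voom, with a median log2 fold change of -0.02; at an unadjusted p below 0.05 there were 4 by each. Vamp8, the granule SNARE protein of acinar cells, was at 50.3 ± 5.27 and 73.1 ± 20.7 FPKM (limma adjusted p = 0.211). Stxbp2, which binds syntaxins, was at 37.0 ± 2.61 and 38.4 ± 7.06 FPKM (limma adjusted p = 0.930). These genes serve secretion in many epithelial cells, enterocytes included.

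Pancreatic proteases and carboxypeptidases, packed in the same granules, fell in 11 of 12 tested, with a median log2 fold change of -5.52 and 0 that rose. Chymotrypsinogen Ctrb1 had a log2 fold change of -8.10 and the trypsinogen Prss2 of -7.12 (limma adjusted p = 0.00107 and 0.00174). With voom 0 of the 12 were called (11 at an unadjusted p below 0.05), and without WT library 3 all 13 tested were. WT library 3 held 7.29% of the mean of the other WT libraries for Prss2 and 8.77% for Ctrb1, within the range of the 6 genes. Counting these with the other lipid, amylase and granule genes, 17 of 26 tested genes fell, against 2.77% of all genes. The count was 21 of 27 without WT library 3 (2.08% of all genes), 2 with voom (1.53%) and 2 without Zeb2+/- libraries 1 and 3. Ctrb1 and Prss2, at Zeb2+/- means of 0.430 and 0.0257 FPKM, were among those that passed the filter only through WT. The lists were drawn up with earlier results known, so these counts are not read as a test.

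Acinar regulators and receptors gave 1 lower call in 7 tested, and 2 without WT library 3. Bhlha15 (Mist1), a basic helix-loop-helix factor of serous secretory cells, fell from 2.47 ± 0.405 to 0.809 ± 0.122 FPKM (log2 fold change -0.94, limma adjusted p = 0.00495, voom 0.0340), and was past the threshold in 19 of 19 alternatives. For Bhlha15 WT library 3 held 75.9% of the mean of the other WT libraries, against 3.58 to 9.57% for the 6 genes. Serpini2 was nearer to the 6, at 2.48 ± 1.82 and 0.0138 ± 0.0276 FPKM (SD, n = 4) without overlap. WT library 3 held 10.2% of its mean in the other WT libraries. Its limma adjusted p was 0.0659, and 0.00367 without WT library 3 (voom 0.113). Aqp12, too low to test, gave 79 reads in WT and 0 in Zeb2+/-. The defining acinar factor Ptf1a was at or near 0 in every library, with 1 read in each genotype. Rbpjl, its partner, was at 0.0268 to 0.564 FPKM in WT and 0 to 0.422 FPKM in Zeb2+/-, and was highest in WT library 2 and Zeb2+/- library 4. The other tested genes, Nr5a2, Gata4, Gata6, Xbp1 and Spdef, overlapped between groups and kept 71.9 to 92.4% of their WT means. Cckar (0.679 and 0.207 FPKM), Sctr, Chrm3 and Chrm1 overlapped as well. Apart from Bhlha15, Xbp1, Gata4 and Gata6, the genes of this list are named here after their values were seen.

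The 10 genes whose profile over the 8 libraries was most like the mean profile of the 6 genes included Ctrl, Cela1, Cela3b, Cpb1, Try5, Cpa1, 2210010C04Rik, Igkv4-55 and Reg2. Likeness was the root mean square distance between centred log2(FPKM + 1) profiles, which was 0.29 for Ctrl, 0.83 for Reg2 and 2.58 for the median of all genes. Of the 6 themselves, Pnliprp1 lay at 0.27, Sycn at 0.31, Amy2b at 0.54, Cel at 0.56, Gp2 at 0.999 and Pnlip at 1.05. Each of the 6 is part of the mean profile, which shortens its own distance. The profile also carries the genotype difference for which they were chosen, so no likeness is read from these values. The distance counts departures from the mean profile in either direction: of the 6, Pnlip had the largest difference between genotypes and Gp2 the smallest, and both lay farthest from it. Most of the 10 encode proteases and carboxypeptidases of the pancreas, and Igkv4-55 is an immunoglobulin light chain variable gene.

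Gp2 was set beside the genes of M cells, which also carry it. Of 11 M cell genes tested, 0 fell and 0 rose by limma or voom (0 and 1 at an unadjusted p below 0.05), with a median log2 fold change of 0.07. Their summed level was 99.8 to 120.4 FPKM in WT, and 234.8, 93.2, 83.4 and 164.1 FPKM in Zeb2+/- libraries 1 to 4, so it was highest in libraries 1 and 4, the 2 mutant libraries with Gp2 reads. Clu was at 85.0, 1.80, 0.9499 and 45.5 FPKM in these 4 libraries and at 1.87 to 16.3 FPKM in WT. Anxa5 was at 26.3, 4.63, 5.75 and 13.1 FPKM in Zeb2+/-. The list was not uniform: of its 13 genes, libraries 1 and 4 were the highest pair of mutant libraries for 9. Ccl6, the most abundant in WT, was lowest in library 1 (17.0, 35.01, 34.7 and 28.5 FPKM), and Pglyrp1 was highest in library 2 (19.1, 21.2, 9.43 and 17.3 FPKM). Spib, the master factor of M cells, was at 29.1, 3.52, 2.36 and 17.7 FPKM in Zeb2+/- and 2.15 to 8.84 FPKM in WT. Tnfrsf11a was lowest in library 1 (4.37, 9.48, 5.96 and 7.23 FPKM in Zeb2+/-). Spib and Tnfrsf11a are named after their values were seen. Zeb2+/- library 4 also held the most mutant reads of Pnlip (48) and Amy2b (21). None of the 13 listed M cell genes was at 0 in all libraries, and the part of M cells in the Gp2 level was not tested.

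**Figure D4:**
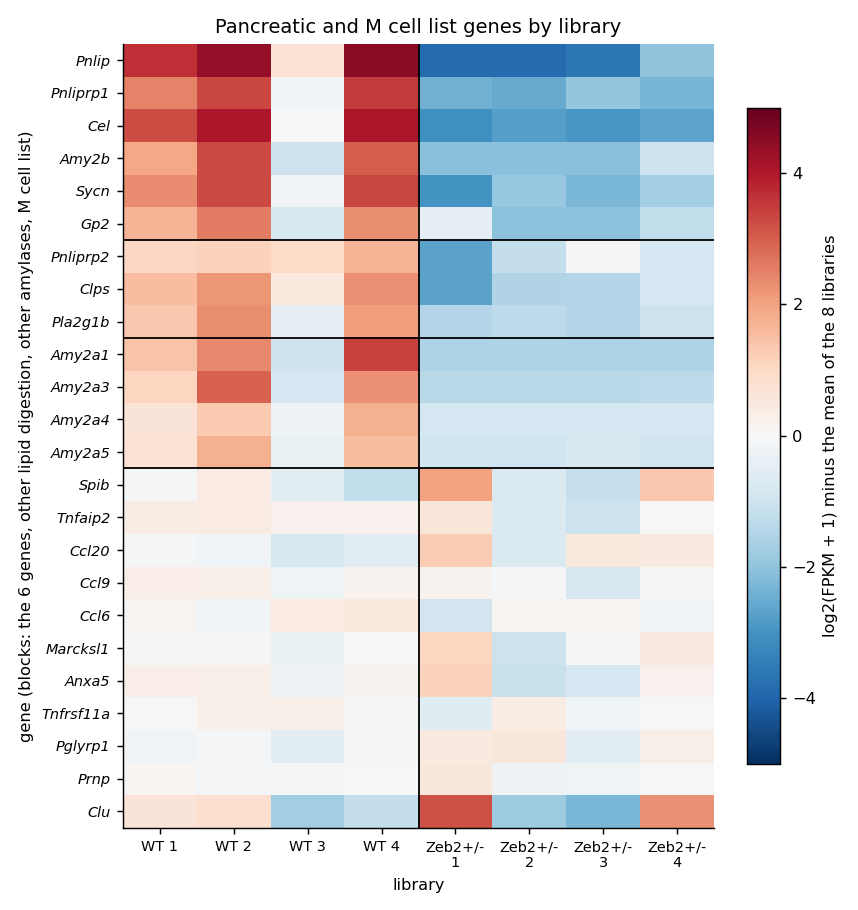
Level of the 6 genes, other lipid digestion genes, other amylases and M cell genes (rows, in blocks) in the 8 libraries (columns), as log2(FPKM + 1) minus each gene's mean over the libraries. The pancreatic blocks are high in WT libraries 1, 2 and 4 and low in all Zeb2+/- libraries. Pnliprp2 in WT library 3 (34.8 FPKM) is near the other WT libraries. Spib and Clu are highest in Zeb2+/- libraries 1 and 4, whereas Ccl6 and Tnfrsf11a are lowest in Zeb2+/- library 1.

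Fat and starch handling by the intestine itself was tested for comparison. Of 13 lipases made outside the pancreas, 0 fell and 0 rose (median log2 fold change -0.15), and the most abundant, the carboxylesterase Ces2e, was at 582.6 ± 104.6 and 731.8 ± 179.7 FPKM. Of 21 genes of fat uptake and chylomicron assembly, 0 fell and 0 rose (median -0.10). The apolipoprotein Apoa4 was at 4138 ± 1098 and 4139 ± 2743 FPKM, and the fatty acid binding protein Fabp2 at 5745 ± 1296 and 6142 ± 2759 FPKM. Of 7 brush border genes of starch digestion and sugar uptake, 0 fell and 0 rose (median -0.29), with sucrase-isomaltase (Sis) at 1015 ± 133 and 867 ± 337 FPKM (SD, n = 4). By voom 0 genes of these 3 lists were called either. At an unadjusted p below 0.05 there were 1, 0 and 0 by limma and 4, 4 and 1 by voom, and a call missed does not show that these genes did not differ.

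Markers of other pancreatic and nearby cells were read in the same way. Of 8 pancreatic duct genes tested 0 were called by limma or voom (1 by each at an unadjusted p below 0.05, median -0.06), with Krt19, also a gut epithelial keratin, at 542.5 and 533.1 FPKM. Of the islet genes, the insulin gene Ins2 was at 0 to 0.900 FPKM in WT (26 reads) and 0 to 0.119 FPKM in Zeb2+/- (2 reads). It overlapped between groups and is named after its values were seen. Iapp gave 50 and 49 reads. Gcg and Sst, which gut endocrine cells also make, were the 2 that could be tested. Of gastric gland genes 1 could be tested and was not called (Gkn3, 5.41 and 3.15 FPKM, limma adjusted p = 0.260). Too low to test, Pgc (0.482 and 0.0494 FPKM, 38 and 4 reads) and Gif (28 and 0 reads) were lower in Zeb2+/- without overlap. Atp4a (29 and 20 reads) overlapped. Ileal genes could not be tested, at under 1 FPKM, and 6 of 7 salivary gland genes were at 0 in every library. Of 9 enterocyte and duodenum genes 0 were called by limma or voom (0 and 2 at an unadjusted p below 0.05), with a median of -0.32.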

How the data were processed

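RNA-seq of duodenum from 4 WT and 4 Zeb2+/- samples was used. The deposited values are FPKM per gene, computed by the authors; the submitters' processing notes name HISAT2 2.0.5, featureCounts 1.5.0-p3 and the build GRCm38 (mm10). The labels describe dUTP directional libraries. The sources used here do not give the annotation, the library total behind the FPKM, or how strand and reads with several matches were handled in counting.

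FPKM times gene length fell on whole multiples of 1 read for 100% of values above 0 (tolerance 0.01 read), which allowed the reads to be rebuilt (13579347 to 17137417 in a library). The main test was limma 3.58.1 (R 4.3.3; lmFit, eBayes with trend and robust) on log2(FPKM + 1) with genotype as the only term, for genes with a mean of at least 1 FPKM, two-sided, with Benjamini-Hochberg adjustment over 12190 genes and a threshold of 0.05. Fold changes on this scale understate changes of low genes. The 6 genes, the gene lists and the tests were chosen with earlier results of these data known. The genes named were the 6, all tested genes of the lipid, amylase and granule content lists, up to 4 genes of each other list (called ones by p, then the most abundant), the 10 nearest profiles and Zeb2; others are marked, and 1 gene that the rule takes is not reported here. The fit was tested on simulated counts with the same dispersion for every gene and no library set apart. That test does not cover genes like the 6, with WT library 3 far below the other WT libraries and few mutant reads. The alternatives were other pseudocounts (0.1 and 5), no filter or at least 5 FPKM, TPM scaling, median of ratios, quantile normalization, other variance models, voom on the rebuilt reads, the replicate block and leaving out libraries. The share of reads without WT library 3 was an alternative added after seeing the data. Starts and sequences came from RefSeq (GRCm38.p6), and exons from GENCODE on the same build. No other samples' columns were present.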

Additional observations from a re-analysis of the deposited data

Results flagged for a closer look

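A library stood far from the other 3 of its genotype (gap over range above Dixon's 95% critical value for 4 samples) in 22 of 176 groups examined, over 88 genes. For normally distributed values chance flags about 1 group in 20. A group with reads in only 1 library is flagged whatever its value, so the 22 flags cannot be set against that rate.

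Zeb2+/- library 4 stood above the other mutant libraries for 12 genes, mostly pancreatic. Of the 6 genes described, these were Pnlip at 2.52 FPKM and Amy2b at 1.04 FPKM. Among the other amylases and granule genes, Amy2a3 was at 0.0420 FPKM, Amy2a4 at 0.0210 FPKM and Cuzd1 at 0.0691 FPKM, which rest on 1 or 2 reads. Among proteases, Cela2a was at 0.769 FPKM, Cela3b at 0.328 FPKM, Try5 at 0.519 FPKM and Cpa1 at 0.356 FPKM. The remaining genes were 2210010C04Rik at 0.582 FPKM, Tff2 at 0.534 FPKM and Aqp5 at 0.0600 FPKM. Zeb2+/- library 3 stood above the others for Amy2a5 (0.126 FPKM) and Prss2 (0.103 FPKM).

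WT library 3, the lowest WT library for the pancreatic genes, stood above the other WT libraries for the carboxylesterase Ces2c (498.1 FPKM), the glucose transporter Slc5a1 (1684 FPKM) and lactase Lct (794.7 FPKM), and below them for Pglyrp1 (9.35 FPKM). Zeb2+/- library 2 was high for Sst (42.2 FPKM) and Zeb2+/- library 1 was low for Cftr (15.8 FPKM). WT library 4 was high for Gif (0.678 FPKM) and Hoxb13 (0.157 FPKM).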

How the results depend on the processing

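No direction was reversed for a gene called in the main fit or in the alternative, nor for the 6 genes. A change of sign in a gene called in neither fit was not counted. Of 1310 alternative values for 66 genes, 1194 kept their side of the threshold, 103 lost the call and 13 gained it. Of 90 alternative values for the 6 genes, 74 moved by less than 1 SD and 16 by more, all with another pseudocount or voom. The count of genes changed, 395 (338 lower, 57 higher), was 157 at a mean of at least 5 FPKM, 1187 with array weights, 202 with voom on rebuilt reads, and 206 to 496 on leaving out 1 library. For genes changed, lower, array weights gave 694 and TPM scaling 352; for genes changed, higher, they gave 493 and 16. The 17 lower calls among the other digestive and granule genes were 11 without a filter, 2 with voom, 2 without Zeb2+/- libraries 1 and 3, and 10 to 21 on leaving out 1 library. The member median difference (log2, over the 6 genes), -4.51, was -5.98 with a pseudocount of 0.1, -2.99 with 5, -6.96 with voom and -5.30 to -4.12 on leaving out 1 library. With the replicate block 299 genes changed and 12 of the list genes were lower; libraries of the same number did not deviate together (correlations 0.24, -0.16, 0.33 and -0.19), so the numbers give no pairing. The cause of these shifts was not tested.

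In Zeb2+/- the 6 genes rest on 23 to 123 reads per library, so differences among mutant libraries for a single gene are at the limit of this depth, and ratios over the mutant mean are imprecise.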

Other observations

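A few other genes moved with the genotype. Tff2, a trefoil peptide of gastric mucous neck cells and Brunner glands, was at 7.95, 15.2, 2.63 and 17.1 FPKM in WT libraries 1 to 4 and at 0, 0, 0 and 0.534 FPKM in Zeb2+/-, with log2 fold change -3.15 and limma adjusted p = 0.00811 (0.0688 with voom, 0.131 without Zeb2+/- libraries 1 and 3). WT library 3 was its lowest WT library, at 19.6% of the mean of the others. The Brunner gland mucin Muc6 was near 0 in both genotypes (0.0214 and 0.0335 FPKM). Gcg, the proglucagon gene of endocrine cells, fell from 7.03 ± 1.37 to 2.13 ± 0.922 FPKM (log2 fold change -1.39, limma adjusted p = 0.00967, n = 4), was called in 19 of 19 alternatives, and held 68.7% in WT library 3.

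Adipocyte genes varied widely between libraries. Of 6 tested 0 were called by limma or voom, and 0 were below an unadjusted p of 0.05, with a median log2 fold change of 0.52, and their summed level ran from 56.5 to 136.1 FPKM in WT and from 61.3 to 238.5 FPKM in Zeb2+/-. It was highest in Zeb2+/- library 1. Cfd, adipsin, was at 11.4 ± 9.90 and 43.2 ± 54.8 FPKM (SD, n = 4).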
